A study of Mus musculus with 17 samples.

Results

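Itgam, Msr1, Fcgr3 and Acp5 were followed through azoxymethane-induced colon tumors and preneoplastic colon of mast cell-deficient Kit-W/sh and mast cell-competent Kit-B6 mice. They were taken by symbol from the per-sample count tables, and they are 4 of the 988 genes measured there. All 4 passed the filter on low counts in each comparison. Itgam is the alpha chain (CD11b) of the integrin that myeloid cells use as complement receptor 3. Msr1 is the class A macrophage scavenger receptor, Fcgr3 is a low-affinity receptor for the Fc part of IgG, and Acp5 is tartrate-resistant acid phosphatase.

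Macrophages recognise and take up particles through surface receptors of several kinds. Integrins bind complement fragments and adhesion molecules, scavenger receptors bind modified lipoproteins and microbial surfaces, and Fc receptors bind antibody-coated targets. Acp5 is a lysosomal enzyme best known from osteoclasts, the bone-resorbing relatives of macrophages, and it is also made by some macrophages. Itgam and Fcgr3 are shared with neutrophils and natural killer (NK) cells, so neither marks macrophages alone.

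The 17 samples came from mice given azoxymethane, a colon carcinogen, by intraperitoneal injection. The tumor groups were 6 Kit-W/sh and 6 Kit-B6 tumors at postnatal week 32, after 6 injections over 6 weeks and a further 18 weeks. The preneoplastic groups were 2 Kit-W/sh and 3 Kit-B6 colon samples at postnatal week 14, after 3 injections over 3 weeks and a further 3 weeks. Kit-W/sh mice carry the W-sash inversion upstream of Kit, and the inversion is present in every cell and not only in mast cells. Kit-B6 mice are C57BL/6. The labels name no mouse for any sample, so samples may share an animal and the spread behind each p-value may be partly technical. W-sash mice are also known for expanded myeloid cells, apart from their lack of mast cells. Stage was tied to age and to the number of injections, and these cannot be told apart.

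Library totals were 1049408 to 1262171 counts in Kit-W/sh tumors and 616554 to 1399902 counts in Kit-B6 tumors. They were 621141 to 815973 counts in Kit-W/sh preneoplastic colon and 616009 to 703549 counts in Kit-B6 preneoplastic colon. Levels are CPM (size-scaled counts) after trimmed mean of M values (TMM) scaling, and 1 count was worth 0.713 to 1.83 CPM. The smallest count of the 4 genes was 11, for Itgam in a Kit-W/sh preneoplastic library. Kit, the receptor tyrosine kinase that the inversion misregulates, was at 48.9 to 257.6 CPM in Kit-W/sh tumors against 93.7 to 473 CPM in Kit-B6 tumors, and at 113 and 127 CPM in Kit-W/sh preneoplastic colon against 267.7 to 521 CPM in Kit-B6 preneoplastic colon. The mast cell protease gene Cpa3 was at 0 to 9.81 CPM in 5 Kit-W/sh tumors against 11.3 to 255.9 CPM in the Kit-B6 tumors. Its level was 460 CPM in 1 more library, which is labelled Kit-W/sh tumor 2 and so goes against that label. On the first principal component of all genes, Kit-B6 tumor 4 lay at 8.12, between the other tumors (-24.1 to -0.26) and the preneoplastic samples (27.4 to 32.4). Leaving out the library labelled Kit-W/sh tumor 2 changed no call of the 4 genes, and results that change without Kit-B6 tumor 4 are given both ways.

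Tumors carried more Itgam, Msr1 and Fcgr3 than preneoplastic colon in both genotypes, and less Acp5 in Kit-W/sh mice. In Kit-W/sh mice all 4 genes passed the test, 3 upwards and Acp5 downwards. In Kit-B6 mice the 3 receptors passed upwards and Acp5 did not pass. Across the panel, 39.7% of 869 genes passed in Kit-W/sh mice (20.9% higher, 18.8% lower) and 41.1% of 869 in Kit-B6 mice (22.2% higher, 18.9% lower), so a change with stage was common. In Kit-W/sh mice, where 345 genes passed, 132 passed without preneoplastic sample 1 and 159 without sample 2. The share of passing genes that were higher was 52.8% for Kit-W/sh and 54.1% for Kit-B6 mice, and it was 82.6% and 74.7% when libraries were scaled to housekeeping genes. The median log2 fold change of the 4 genes was 2.13 in Kit-W/sh mice and 1.65 in Kit-B6 mice, against 0.08 and -0.003 over all genes tested. In whole tissue, fewer cells of a type and less RNA per cell cannot be told apart.

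**Figure D1:**
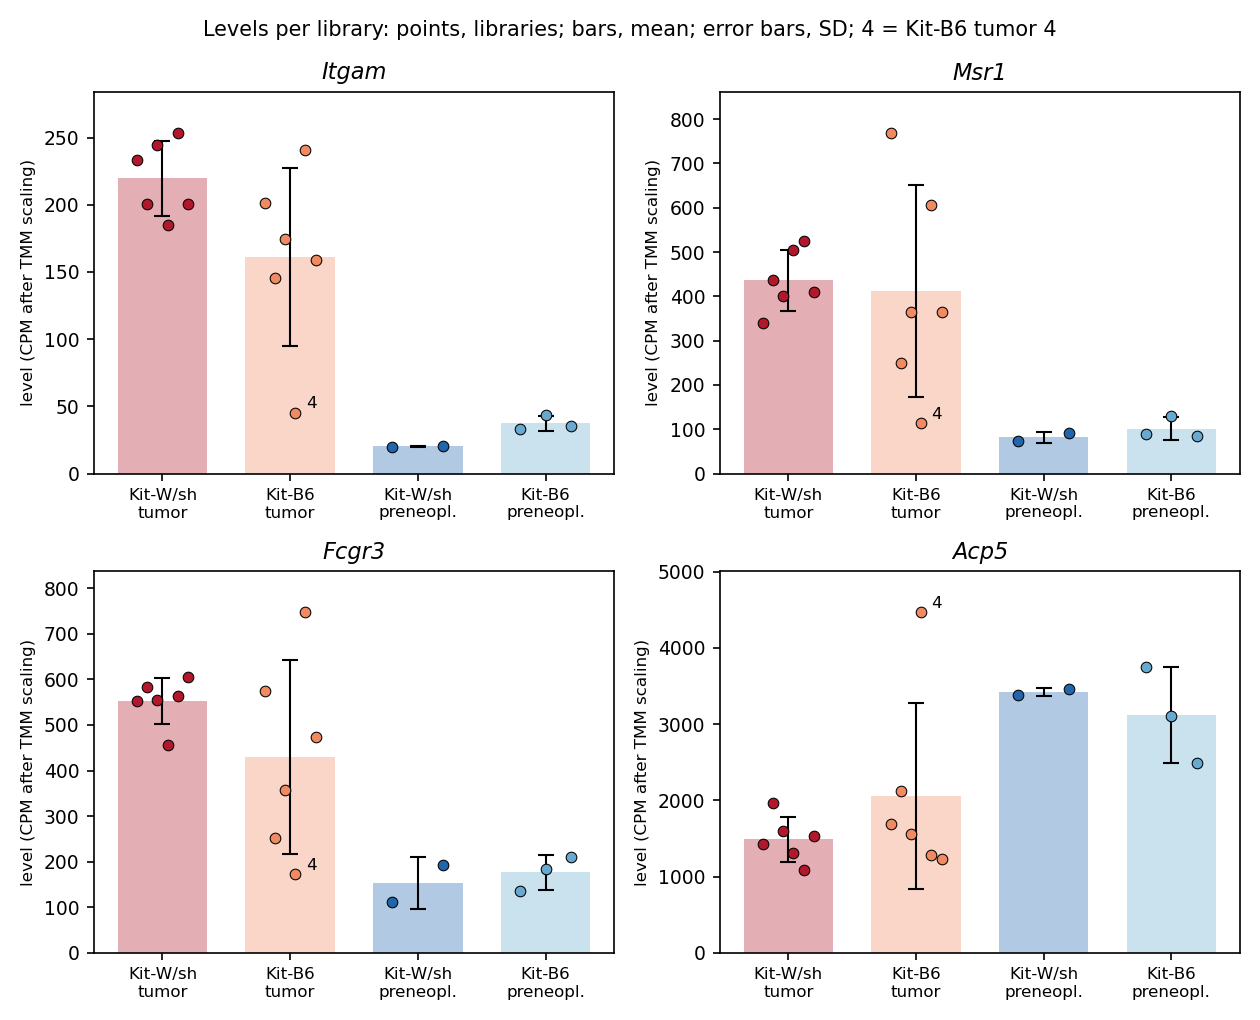
Level of each gene in CPM (y axis, linear from 0) in every library of the 4 groups (x axis); points are libraries, bars are group means, error bars are SD, and 4 marks Kit-B6 tumor 4. Itgam, Msr1 and Fcgr3 are highest in tumors and Acp5 is highest in preneoplastic colon and in Kit-B6 tumor 4, at 4468 CPM.

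Itgam was at 233, 200.5, 244, 185, 253.5 and 200.7 CPM in the Kit-W/sh tumors (median 217 CPM). In Kit-W/sh preneoplastic colon it was at 19.9 and 20.6 CPM. Every tumor library lay far above both preneoplastic libraries. The log2 fold change was 3.43 ± 0.51 (SE; 95% interval 2.36 to 4.50), which is 10.8-fold (edgeR quasi-likelihood test, adjusted p = 0.00018). In Kit-B6 tumors Itgam was at 201, 145, 174, 45.3, 241 and 159 CPM, with a median of 167 CPM. In Kit-B6 preneoplastic colon it was at 33.0, 43.5 and 35.6 CPM. The Kit-B6 groups did not overlap either, although tumor 4 stood only just above the highest preneoplastic library. The log2 fold change was 2.10 ± 0.39 (95% interval 1.28 to 2.93), or 4.3-fold, with an edgeR adjusted p of 0.00061. Of the 30-base stretches in Itgam transcripts, 69.2% also belong to Gm49368, an overlapping gene model on the same strand (GENCODE vM21).

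Msr1 was at 340.5, 437, 401, 505, 524 and 411 CPM in the Kit-W/sh tumors (median 424 CPM). In Kit-W/sh preneoplastic colon it was at 72.3 and 90.8 CPM. All tumor libraries were above both preneoplastic ones, and the log2 fold change was 2.41 ± 0.55 (95% interval 1.25 to 3.57; 5.33-fold; edgeR adjusted p = 0.0034). Without Kit-W/sh preneoplastic sample 1 the log2 fold change was 2.27 and its adjusted p was 0.059. In Kit-B6 tumors Msr1 was at 769, 249, 364, 113, 607 and 366 CPM, with a median of 365 CPM. In Kit-B6 preneoplastic colon it was at 89.8, 131 and 83.7 CPM. Tumor 4 fell inside the preneoplastic range and the other tumors were above it, and the log2 fold change was 2.02 ± 0.45 (95% interval 1.07 to 2.97; 4.06-fold; edgeR adjusted p = 0.0025).

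Fcgr3 was at 552, 583, 554, 457, 564 and 605 CPM in the Kit-W/sh tumors (median 559 CPM). In Kit-W/sh preneoplastic colon it was at 112 and 193 CPM. The groups did not overlap, and the log2 fold change was 1.85 ± 0.45 (95% interval 0.91 to 2.80; 3.61-fold; edgeR adjusted p = 0.0047). Without Kit-W/sh preneoplastic sample 1 it was 1.52, with an adjusted p of 0.094. In Kit-B6 tumors Fcgr3 was at 575, 253, 356, 173, 748 and 473 CPM, with a median of 415 CPM. In Kit-B6 preneoplastic colon it was at 136, 183 and 211 CPM. Tumor 4 again lay within the preneoplastic range, and the log2 fold change was 1.28 ± 0.37 (95% interval 0.51 to 2.06; 2.43-fold; edgeR adjusted p = 0.011). This call was lost when Kit-B6 preneoplastic sample 1 was left out, at a log2 fold change of 1.16 and an adjusted p of 0.051, and when only Kit-B6 libraries were fitted, at 1.28 and 0.052. Of the 30-base stretches in Fcgr3 transcripts (GENCODE vM21), 14.6% also occur in Fcgr2b, the inhibitory Fc receptor gene. The position of the Fcgr3 amplicon was not given, so the split of reads between these genes is uncertain.

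Acp5 ran the other way. It was at 1430, 1960, 1602, 1306, 1086 and 1537 CPM in the Kit-W/sh tumors (median 1484 CPM). In Kit-W/sh preneoplastic colon it was at 3384 and 3459 CPM. Every tumor library was below both preneoplastic libraries, and the log2 fold change was -1.20 ± 0.36 (95% interval -1.97 to -0.44), 2.3-fold lower (edgeR adjusted p = 0.016). The call was lost without either preneoplastic library, with adjusted p of 0.098 without sample 1 and 0.092 without sample 2, while the log2 fold change stayed at -1.22 and -1.18. It was also lost when libraries were scaled to Rpl13a and Tfrc, a pair of housekeeping genes, at -0.70 and an adjusted p of 0.169. That scaling moved the median of all genes to 0.56, and relative to that median Acp5 stood at -1.26, against -1.28 with TMM. A change of scaling shifts all genes by nearly the same amount, so this near equality was fixed in advance. It says nothing about the lost call.

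In Kit-B6 tumors Acp5 was at 1684, 2128, 1561, 4468, 1279 and 1229 CPM, with a median of 1622 CPM. In Kit-B6 preneoplastic colon it was at 3748, 3102 and 2488 CPM. Tumor 4 was above every preneoplastic library and the other 5 tumors were below all of them. With all libraries the log2 fold change was -0.60 ± 0.33 (95% interval -1.28 to 0.09) and did not pass (edgeR adjusted p = 0.147). Without tumor 4 it was -0.98, with an adjusted p of 0.0011. With tumors 4 and 5, whose deposited names share a prefix, summed as 1 sample it was -0.75, with an adjusted p of 0.013. Acp5 shares no 30-base stretch with another gene, but a transcript on the opposite strand, 6530413G14Rik, overlaps it, and the strand setting of the counting was not given.

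In Kit-W/sh mice, 58.2% of the 869 genes had tumor and preneoplastic libraries that did not overlap, as all 4 of these genes did. In Kit-B6 mice the share was 29.3%, and among the 4 genes Itgam met it. Passing upwards in both genotypes, as the 3 receptors did, was seen for 138 of 869 genes, or 15.9%. Both stage comparisons came from 1 fit of all libraries and share its estimate of spread.

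**Figure D2:**
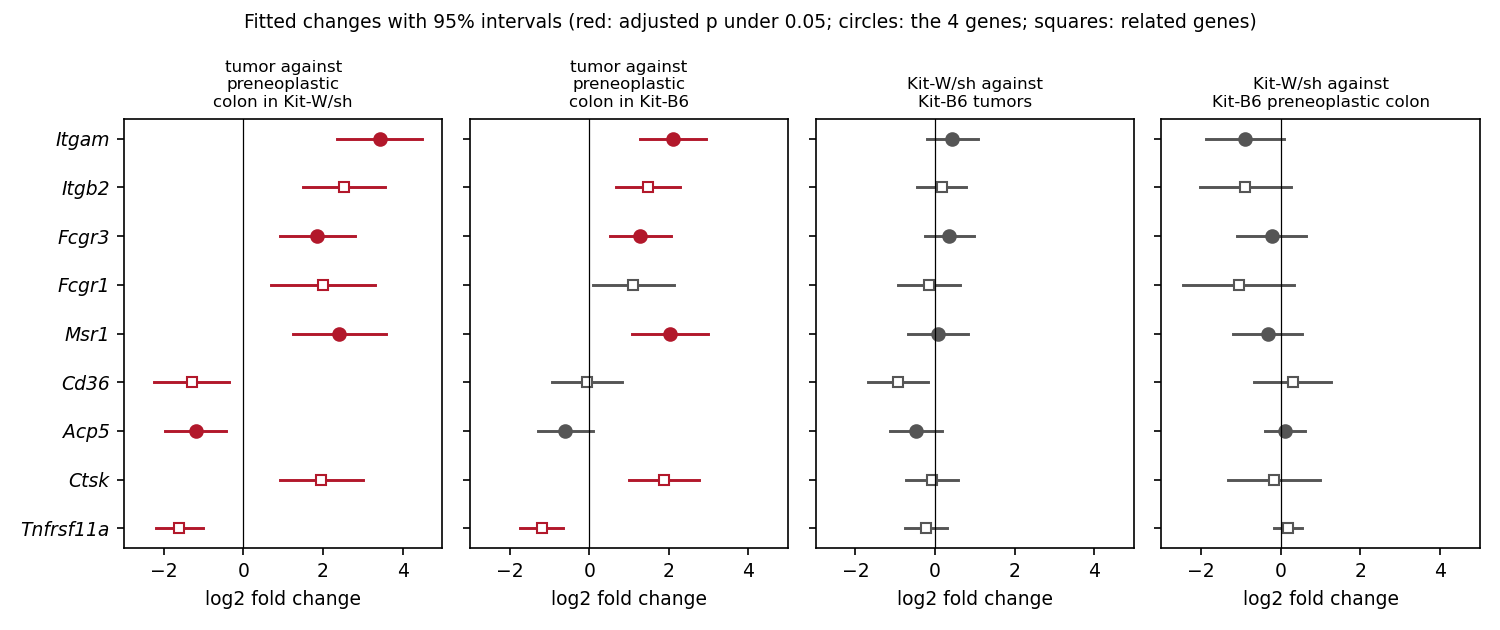
Log2 fold change (x axis) of each gene in 4 panels, the tumor-against-preneoplastic comparison within each genotype and the Kit-W/sh-against-Kit-B6 comparison within each stage, with points for the estimate and bars for its 95% interval. The intervals of Itgam, Msr1 and Fcgr3 lie above 0 in both tumor-against-preneoplastic comparisons, that of Acp5 lies below 0 in Kit-W/sh mice, and the intervals of these 4 genes in the panels of Kit-W/sh against Kit-B6 reach across 0; squares are related genes, and red marks an adjusted p under 0.05.

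Several partners of these proteins rose with the receptors. The panel shares to set beside this and the following lists are 20.9% higher and 18.8% lower in Kit-W/sh tumors. For Kit-B6 tumors they are 22.2% higher and 18.9% lower. Itgb2, the beta chain that pairs with Itgam, had a median of 303.5 CPM (242 to 353) in the Kit-W/sh tumors, and 52.3 CPM for Kit-W/sh preneoplastic colon, and rose by 2.52 ± 0.49 on the log2 scale (edgeR adjusted p = 0.0012). In Kit-B6 mice Itgb2 had a median of 277 CPM (76.2 to 359) in tumors and 82.2 CPM (64.2 to 140) in preneoplastic colon, and rose by 1.48 ± 0.38 (edgeR adjusted p = 0.0066). Icam1, an adhesion molecule that this integrin binds, rose in tumors by 2.67 ± 0.49 for Kit-W/sh and 2.40 ± 0.41 for Kit-B6 mice on the log2 scale, with edgeR adjusted p of 0.00077 and 0.00031. Of the 8 measured integrin, ligand and complement genes, 5 rose and 0 fell in Kit-W/sh tumors, and 3 rose and 0 fell in Kit-B6 tumors. Itgb1, the widely expressed integrin beta 1 chain, was among those that rose in both, by 1.11 ± 0.24 for Kit-W/sh and 1.20 ± 0.20 for Kit-B6 mice (edgeR adjusted p = 0.0023 and 0.0003).

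Fcgr1, the high-affinity IgG receptor, rose in Kit-W/sh tumors, at 61.1 ± 20.7 CPM against 15.1 ± 5.95 CPM in preneoplastic colon (log2 fold change 2.00 ± 0.61, edgeR adjusted p = 0.018). In Kit-B6 mice it was at 67.7 ± 35.3 CPM in tumors and 31.3 ± 14.2 CPM in preneoplastic colon (1.11 ± 0.48, edgeR adjusted p = 0.074). The Fcgr2b, Fcgr4 and Fcer1g transcripts, and the transcription factors Spi1 and Mitf, were not among the measured genes under these symbols. Of the 6 measured scavenger receptor genes, 5 were tested and Marco was listed at 0 in every library. Those 5 split in Kit-W/sh tumors into 2 that rose (Scarb2 and Cd68) and 2 that fell (Cd36 and Cd163), and in Kit-B6 tumors into 3 that rose (Scarb2, Colec12 and Cd68) and 1 that fell (Cd163). Cd36, a scavenger receptor and fatty acid transporter that is also made by epithelial and endothelial cells, fell by 1.30 ± 0.45 on the log2 scale in Kit-W/sh tumors (edgeR adjusted p = 0.031), and its log2 fold change was -0.06 ± 0.41 in Kit-B6 mice (adjusted p = 0.919). Cd163, the haemoglobin scavenger receptor of resident macrophages, was at 1.98 ± 2.51 CPM in the Kit-W/sh tumors, against 19.8 ± 2.7 CPM for Kit-W/sh preneoplastic colon, and fell (edgeR adjusted p = 0.031). In Kit-B6 mice it was at 6.50 ± 7.51 CPM in tumors and 35.2 ± 17.3 CPM in preneoplastic colon, and fell (edgeR adjusted p = 0.046).

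Genes that accompany Acp5 in osteoclasts did not follow its direction as a group. Of 8 measured osteoclast-type genes, 5 rose and 1 fell in Kit-W/sh tumors, and 4 rose and 1 fell in Kit-B6 tumors. Ctsk, the collagen-degrading cathepsin of osteoclasts, rose by 1.96 ± 0.50 for Kit-W/sh and 1.88 ± 0.42 for Kit-B6 tumors on the log2 scale (edgeR adjusted p = 0.0062 and 0.0024). Spp1, the secreted matrix protein osteopontin, was at 1829 ± 1492 CPM in the Kit-W/sh tumors, against 3.19 ± 0.61 CPM for Kit-W/sh preneoplastic colon, and rose (edgeR adjusted p = 0.00018). In Kit-B6 mice Spp1 was at 1284 ± 717 CPM in tumors and 6.56 ± 5.37 CPM in preneoplastic colon, and rose (edgeR adjusted p = 6.1e-05). Tnfrsf11a, the receptor RANK through which osteoclast precursors are induced, was the gene that fell in both, by 1.61 ± 0.28 for Kit-W/sh and 1.20 ± 0.25 for Kit-B6 tumors (edgeR adjusted p = 0.00057 and 0.0017). Csf1r, the receptor for macrophage colony-stimulating factor, rose in Kit-W/sh tumors (1.42 ± 0.43, edgeR adjusted p = 0.017) and had a log2 fold change of 0.89 ± 0.35 in Kit-B6 mice (adjusted p = 0.054).

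Markers of several cell types moved with stage too. Of 15 measured monocyte and macrophage genes, 14 were tested. In Kit-W/sh tumors 10 rose and 2 fell, and in Kit-B6 tumors 3 rose and 2 fell, with medians of 1.5 and 0.80 on the log2 scale. Over the panel 20.9% rose and 18.8% fell in Kit-W/sh mice, and 22.2% rose and 18.9% fell in Kit-B6 mice. For the difference of the genotype effect between stages 0 of these 14 genes passed, so 10 against 3 is not a shown difference between genotypes. Clec5a, an activating myeloid lectin, rose by 3.20 ± 0.59 for Kit-W/sh and 2.86 ± 0.48 for Kit-B6 tumors (edgeR adjusted p = 0.0008 and 0.0003), whereas Ctss, the antigen-processing cathepsin S, fell by 1.25 ± 0.32 and 0.81 ± 0.29 (adjusted p = 0.0068 and 0.034). Marco was at 0 in every library. The summed level of the 15 genes was 13510 to 23460 CPM in Kit-W/sh tumors against 13000 to 15050 CPM in Kit-W/sh preneoplastic colon, and 12360 to 29980 CPM in Kit-B6 tumors against 14230 to 20950 CPM in Kit-B6 preneoplastic colon. This sum is weighted to abundant genes and need not follow the others. The apolipoprotein gene Apoe alone was at 6467 to 13860 CPM in Kit-W/sh tumors and 4089 to 19970 CPM in Kit-B6 tumors. In preneoplastic colon it was at 2071 and 3200 CPM for Kit-W/sh and 4395 to 5626 CPM for Kit-B6 mice. Of 6 measured neutrophil genes, 5 were tested and 4 rose in each genotype. Their summed level was 387 to 952 CPM in Kit-W/sh tumors against 18.1 to 20.6 CPM in Kit-W/sh preneoplastic colon, and 76.2 to 401 CPM in Kit-B6 tumors against 13.9 to 27.5 CPM in Kit-B6 preneoplastic colon. Cxcr1 and Mpo were at 0 in all preneoplastic libraries, and no neutrophil gene was at 0 in all tumors of a genotype. The summed level of 11 NK and cytotoxic lymphocyte genes went the other way, at 116 to 352 CPM in Kit-W/sh tumors against 376 to 619 CPM in Kit-W/sh preneoplastic colon, and 94.7 to 211 CPM in Kit-B6 tumors against 302 to 443 CPM in Kit-B6 preneoplastic colon. The part of these cell types in the levels of Itgam, Msr1, Fcgr3 and Acp5 was not tested.

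To set the 4 genes beside macrophage transcripts in the same library, their counts were divided by the summed counts of Csf1r, Cd68 (a lysosomal glycoprotein of macrophages) and Adgre1 (F4/80). Per 100 such counts, Itgam had 16.5 to 29.5 in Kit-W/sh tumors against 4.31 and 6.01 in Kit-W/sh preneoplastic colon. In Kit-B6 samples it had 10.6 to 23.2 in tumors against 5.52 to 8.66 in preneoplastic colon. Every tumor was thus above every preneoplastic sample for Itgam, Kit-B6 tumor 4 included. Msr1 had 35.6 to 50.8 in Kit-W/sh tumors against 19.0 and 21.9 in Kit-W/sh preneoplastic colon, and 26.6 to 48.5 in Kit-B6 tumors against 12.9 to 25.99 in Kit-B6 preneoplastic colon, again with no overlap within a genotype. Fcgr3 had 40.6 to 73.1 in Kit-W/sh tumors against 33.9 and 40.2 in Kit-W/sh preneoplastic colon, and 32.5 to 49.9 in Kit-B6 tumors against 26.7 to 36.5 in Kit-B6 preneoplastic colon. The Fcgr3 ratios of the Kit-B6 groups overlapped, and those of the Kit-W/sh groups nearly touched. Acp5 had 105 to 186 in Kit-W/sh tumors against 722 and 1022 in Kit-W/sh preneoplastic colon, and 77.3 to 1049 in Kit-B6 tumors against 385 to 738 in Kit-B6 preneoplastic colon. The highest Kit-B6 value was again that of tumor 4. Per 100 summed counts of the neutrophil genes Csf3r, Cxcr2 and Fpr1, all 4 genes were lower in tumors than in preneoplastic colon. Itgam then had 30.5 to 73.9 in Kit-W/sh tumors against 136 and 275 in Kit-W/sh preneoplastic colon. In Kit-B6 samples it had 67.5 to 98.8 in tumors against 257 to 575 in preneoplastic colon. Preneoplastic libraries held only 4 to 11 counts of these neutrophil genes. These ratios were chosen with the levels known and carry no test. The macrophage ratios depend on the 3 genes in the divisor and are not levels per cell. In Kit-B6 mice the log2 fold changes with stage were 0.89 for Csf1r, 1.11 for Cd68 and 0.54 for Adgre1. On the same list they were 2.86 for Clec5a and -2.45 for Cd163. The share of all genes whose ratios did not overlap in this way was not computed. For levels, the groups did not overlap for 58.2% of 869 genes in Kit-W/sh mice and 29.3% in Kit-B6 mice.

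**Figure D3:**
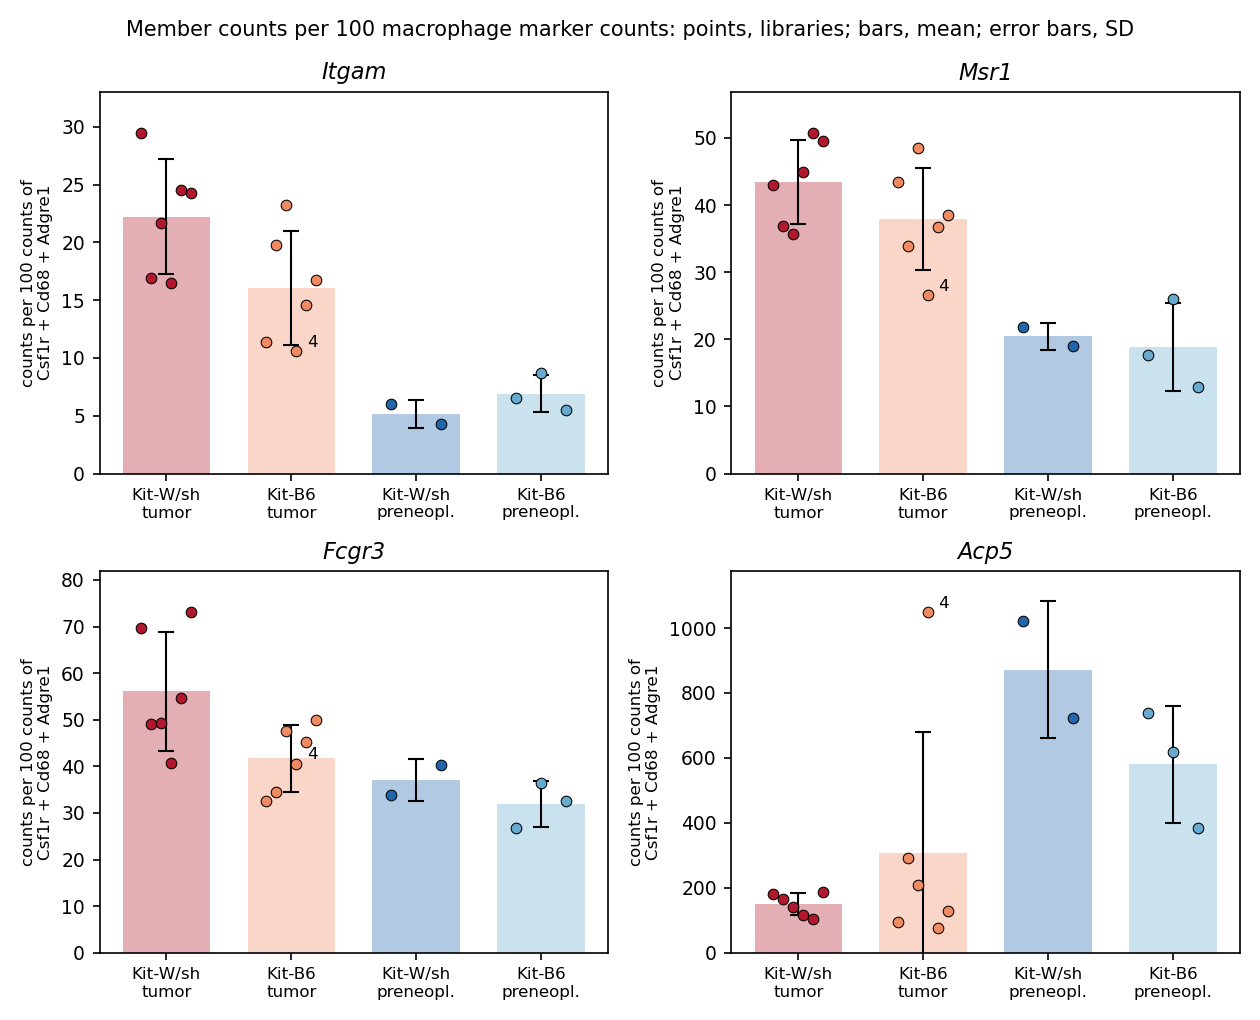
Counts of each gene per 100 summed counts of Csf1r, Cd68 and Adgre1 in the same library (y axis, from 0) for the 4 groups (x axis); points are libraries, bars are means, error bars are SD, and 4 marks Kit-B6 tumor 4. Relative to these summed counts, Itgam and Msr1 are higher in all tumors than in the preneoplastic samples of their genotype. Acp5 is lower in all tumors but Kit-B6 tumor 4, at 1049. The ratios depend on the genes in the divisor and are not levels per cell.

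Car4, a carbonic anhydrase of the absorptive colon surface, was at 1416, 4788, 1301, 549, 98.5 and 1154 CPM in Kit-W/sh tumors 1 to 6 and at 60400 and 61540 CPM in Kit-W/sh preneoplastic colon. In Kit-B6 samples it was at 226, 3833, 3806, 14840, 180.3 and 360 CPM in tumors 1 to 6 and at 92840, 26010 and 33270 CPM in preneoplastic colon. Car4 fell with a log2 fold change of -5.30 ± 1.26 for Kit-W/sh and -3.71 ± 1.15 for Kit-B6 mice (edgeR adjusted p = 0.0045 and 0.018). The tumors with the highest and the lowest Acp5 among Kit-W/sh mice, 2 and 5, were also highest and lowest for Car4, and Kit-B6 tumor 4 was highest of all tumors for both. Among Kit-B6 tumors the lowest Acp5 was in tumor 6 and the lowest Car4 in tumor 5. Epcam, a pan-epithelial adhesion molecule, had log2 fold changes of -0.07 ± 0.18 for Kit-W/sh and 0.02 ± 0.16 for Kit-B6 mice (adjusted p = 0.752 and 0.911). The part of epithelial cells in the Acp5 level was not tested.

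Kit-B6 tumor 4 was the lowest of all 12 tumors for Itgam, Msr1 and Fcgr3. It was also the lowest for Csf1r at 174 CPM, Cd68 at 189 CPM, Adgre1 at 62.8 CPM and the neutrophil receptor gene Csf3r at 29.9 CPM. It was the highest of the 12 for Acp5, for Epcam at 34600 CPM and for Car4. For the receptors, Acp5 and Car4 this is the direction in which preneoplastic colon lay.

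The genotypes were compared as labelled, and the Kit-W/sh tumors include the library labelled Kit-W/sh tumor 2, with its high Cpa3. In tumors none of the 4 passed the test and none had groups that did not overlap. Nothing else passed either: 0 of 799 genes (0%) had an adjusted p below the threshold with edgeR, 109 (13.6%) had an unadjusted p below 0.05, and DESeq2 called 24, none of them these 4. Groups that did not overlap were found for 5 genes (0.626%). Itgam averaged 220 ± 27.8 CPM in the Kit-W/sh tumors, against 161 ± 66.0 CPM for the Kit-B6 tumors (SD, n = 6 each), and all 6 Kit-W/sh tumors were above the Kit-B6 median. Its log2 fold change was 0.44 ± 0.29 (95% interval -0.20 to 1.07, edgeR adjusted p = 0.542). Msr1 averaged 436 ± 68.5 CPM in the Kit-W/sh tumors, against 411 ± 239 CPM for the Kit-B6 tumors, a log2 fold change of 0.07 ± 0.34 (95% interval -0.67 to 0.82, edgeR adjusted p = 0.951). Without Kit-B6 tumor 4 this value was -0.15, and it was also below 0 without Kit-B6 tumor 2 (-0.05) or Kit-W/sh tumor 5 (-0.003). Fcgr3 averaged 552 ± 50.9 CPM in the Kit-W/sh tumors, against 430 ± 213 CPM for the Kit-B6 tumors, a log2 fold change of 0.35 ± 0.28 (95% interval -0.26 to 0.97, edgeR adjusted p = 0.598). All 6 Kit-W/sh tumors were above the Kit-B6 median for Fcgr3, as for Itgam. How many genes of the panel had such positions was not computed. Acp5 averaged 1487 ± 296 CPM in the Kit-W/sh tumors, against 2058 ± 1224 CPM for the Kit-B6 tumors, a log2 fold change of -0.48 ± 0.30 (95% interval -1.13 to 0.16, edgeR adjusted p = 0.484). Without Kit-B6 tumor 4 the Kit-B6 mean was 1576 ± 363 CPM (n = 5) and the log2 fold change was -0.13. Without the library labelled Kit-W/sh tumor 2, the log2 fold changes were 0.45 ± 0.32 for Itgam, 0.07 ± 0.38 for Msr1, 0.33 ± 0.31 for Fcgr3 and -0.58 ± 0.32 for Acp5, with edgeR adjusted p of 0.483, 0.95, 0.594 and 0.336, and 0 genes of the panel passed.

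The tumors of the 2 genotypes differed in how widely these genes spread. The coefficient of variation was 12.6% in Kit-W/sh tumors and 41.0% in Kit-B6 tumors for Itgam, and 15.7% and 58.2% for Msr1. It was 9.22% in Kit-W/sh tumors and 49.6% in Kit-B6 tumors for Fcgr3, and 19.9% and 59.5% for Acp5. Over the panel, 71.3% of the 799 genes had a wider spread in Kit-B6 tumors, and the median over genes was 24.2% in Kit-W/sh tumors and 34.3% in Kit-B6 tumors. Without tumor 4 the Kit-B6 values were 20.6% for Itgam, 45.0% for Msr1, 39.9% for Fcgr3 and 23.0% for Acp5, all still above the Kit-W/sh values, with Acp5 nearest to its own. Over the panel without tumor 4, 61.1% of genes had a wider spread in Kit-B6 tumors, and the Kit-B6 median was 28.6%. No test of spread was run.

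Between genotypes in tumors 0 genes were called in every list examined, which follows from 0 of 799 genes passing. The 13 tested monocyte and macrophage genes had a median log2 fold change of -0.02, with 4 above 0. The 4 tested neutrophil genes had a median of 1.29, all above 0, against -0.01 over all genes. Cxcr2, a chemokine receptor of neutrophils, was at 121 to 402.5 CPM in Kit-W/sh tumors against 29.9 to 107 CPM in Kit-B6 tumors, and the groups did not overlap. Its log2 fold change was 1.49 ± 0.34 (edgeR unadjusted p = 0.00069, adjusted p = 0.154). Fpr1, a formyl peptide receptor, was at 28.5 to 124 CPM in Kit-W/sh tumors against 2.06 to 34.2 CPM in Kit-B6 tumors (1.81 ± 0.48, edgeR unadjusted p = 0.0023, adjusted p = 0.154). Fpr2, its relative, had 1.08 ± 0.39 (edgeR unadjusted p = 0.015, adjusted p = 0.258). Csf3r, a growth factor receptor of granulocytes, was at 155 ± 53.3 CPM in the Kit-W/sh tumors, against 89.5 ± 35.6 CPM for the Kit-B6 tumors (0.77 ± 0.32, edgeR unadjusted p = 0.032, adjusted p = 0.323). The summed neutrophil level was 387 to 952 CPM in Kit-W/sh tumors against 76.2 to 401 CPM in Kit-B6 tumors. Its part in the Itgam and Fcgr3 values, which neutrophils also contribute to, was not tested.

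In preneoplastic colon 1 of 777 genes (0.129%) passed between genotypes with edgeR, and it was none of these 4. The count was 16 without Kit-B6 sample 1 and 0 when Kit-B6 sample 3, Kit-W/sh sample 1 or Kit-W/sh sample 2 was left out. Itgam was at 19.9 and 20.6 CPM in Kit-W/sh samples and at 33.0, 43.5 and 35.6 CPM in Kit-B6 samples. The groups did not overlap, which held for 29.7% of the 777 genes (13.4% with Kit-W/sh lower). The log2 fold change was -0.90 ± 0.41 (95% interval -1.89 to 0.09, edgeR adjusted p = 0.467). Msr1 gave -0.33 ± 0.36 (95% interval -1.19 to 0.53), Fcgr3 gave -0.23 ± 0.36 (-1.09 to 0.63) and Acp5 gave 0.11 ± 0.21 (-0.39 to 0.62), with edgeR adjusted p of 0.778, 0.845 and 0.877. The groups of these 3 genes overlapped. Among 13 tested monocyte and macrophage genes 1 was above 0, with a median of -0.85 against -0.01 over all genes, and 0 passed. Other immune lists also had medians below 0. These were -2.60 for 7 B cell, -1.13 for 3 eosinophil, -1.01 for 3 dendritic cell and -0.415 for 11 T cell genes. The median of 5 NK and cytotoxic lymphocyte genes was 0.34. Csf1r was at 137 ± 37.8 CPM in Kit-W/sh and 244 ± 61.3 CPM in Kit-B6 preneoplastic colon (-0.85 ± 0.34, edgeR adjusted p = 0.461).

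Itgam was higher in Kit-W/sh tumors and lower in Kit-W/sh preneoplastic colon than in their Kit-B6 counterparts by mean. The difference of the genotype effect between stages was 1.32 ± 0.57 on the log2 scale (95% interval 0.11 to 2.54; unadjusted p = 0.035 and adjusted p = 0.66 in edgeR's quasi-likelihood test). Across the panel 0 of 869 genes (0%) passed this test, 63 (7.25%) had an unadjusted p below 0.05, and DESeq2 called 1. The differences for Msr1, Fcgr3 and Acp5 were 0.39 ± 0.64, 0.57 ± 0.53 and -0.60 ± 0.50, with edgeR adjusted p of 0.93, 0.854 and 0.854. A stage change passing in 1 genotype and not in the other, as for Acp5, is therefore not a shown difference between genotypes.

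Ordered by mean level, Itgam stood highest in Kit-W/sh tumors, then Kit-B6 tumors, Kit-B6 preneoplastic colon and Kit-W/sh preneoplastic colon, and Msr1 and Fcgr3 had the same order. For Acp5 the order was Kit-W/sh preneoplastic colon, Kit-B6 preneoplastic colon, Kit-B6 tumors and Kit-W/sh tumors. Within each stage the neighbours in these orders did not pass the test. The step between Kit-B6 tumors and Kit-B6 preneoplastic colon passed for the receptors, and for Acp5 it did not pass with tumor 4 included.

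The genes whose levels ran most closely with each of the 4 were found by the mean absolute difference of log2 levels, after each gene was centred, over all 17 libraries and 868 other genes. This measure used the same libraries as the comparisons above and is a description. For Itgam the closest were Itgb2 at 0.30, Msr1 at 0.31 and Cd276, an immune checkpoint ligand, at 0.32, against 1.23 for the median gene. For Msr1 they were Ms4a6d at 0.22, Cd276 at 0.29 and the hyaluronan receptor Cd44 at 0.30, against a median of 1.06. For Fcgr3 they were Ms4a6d at 0.26, Cd68 at 0.29 and the apolipoprotein Apoe at 0.30, against a median of 0.86. The 3 receptors lay near one another, with Fcgr3 at 0.32 from Msr1 and 0.45 from Itgam. Acp5 lay 1.33 to 1.72 from the receptors, and its closest genes were the interferon regulatory factor Irf2 at 0.20, the lysosomal thiol reductase Ifi30 at 0.20 and the phosphatase Ppm1h at 0.21, against a median of 0.71.

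These neighbours were picked on the libraries compared by stage, so their levels by stage are given as a description with no test. Irf2 ranged over 728 to 1010 CPM in Kit-W/sh tumors against 1453 and 1673 CPM in Kit-W/sh preneoplastic colon, and over 769 to 1832 CPM in Kit-B6 tumors against 1317 to 1740 CPM in Kit-B6 preneoplastic colon. Ifi30 ranged over 811 to 1317 CPM in Kit-W/sh tumors against 1709 and 1847 CPM in Kit-W/sh preneoplastic colon, and over 881 to 2068 CPM in Kit-B6 tumors against 1727 to 2195 CPM in Kit-B6 preneoplastic colon. Ppm1h ranged over 376 to 621 CPM in Kit-W/sh tumors against 912.5 and 1006 CPM in Kit-W/sh preneoplastic colon, and over 449.7 to 1044 CPM in Kit-B6 tumors against 800.1 to 939 CPM in Kit-B6 preneoplastic colon.

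**Figure D4:**
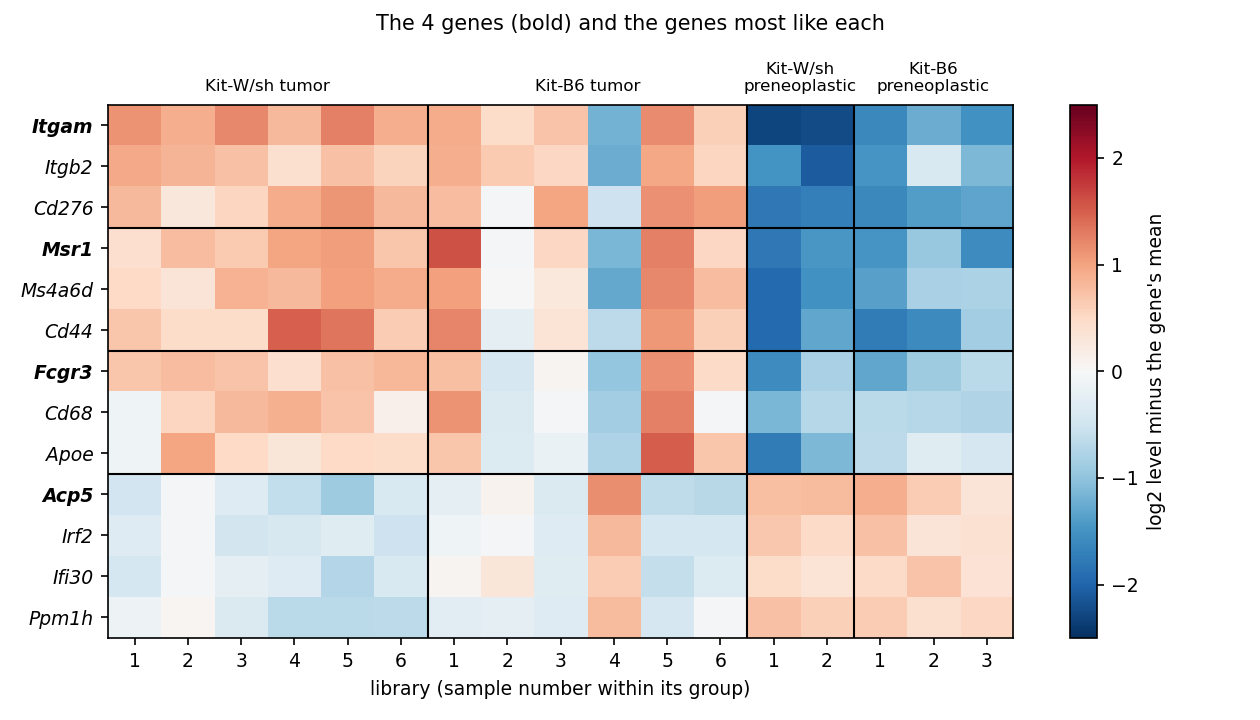
Heat map of the log2 level minus the gene's own mean (color scale, red high and blue low) for the 4 genes in bold and the genes most like each (rows) in the 17 libraries (columns, by group and sample number). The receptors and their neighbours are blue in every preneoplastic library and in Kit-B6 tumor 4, where Acp5, Irf2, Ifi30 and Ppm1h are red.

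The promoters of 3 of the 4 genes were found in RefSeq (GRCm38.p6), and 1 window of each is shown. For Acp5 it is the only window of 3 that held a match to the motifs named here. PU.1 (Spi1) is the transcription factor of myeloid cells that binds GAGGAA sites, and MITF and TFE factors bind M-box sites, TCANNTGA, in osteoclast genes including Acp5. These letters were searched on both strands of the 250 bases before each annotated start, and the motifs were chosen after the sequences were seen. A difference between the genes in these motifs is therefore not a test. GAGGAA occurred in 7639 of 32851 windows of that length (23.3%) and TCANNTGA in 2329 (7.09%). The motifs do not overlap each other in the windows printed. Capitals mark the matches, and TTCCTC is GAGGAA read on the other strand.

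Itgam, chr7:128062390-128062639, + strand: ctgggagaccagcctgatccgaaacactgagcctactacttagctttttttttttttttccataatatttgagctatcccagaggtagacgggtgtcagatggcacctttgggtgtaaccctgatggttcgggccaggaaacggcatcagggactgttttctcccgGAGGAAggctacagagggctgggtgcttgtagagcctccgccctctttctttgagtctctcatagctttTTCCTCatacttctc
Fcgr3, chr1:171059404-171059653, - strand: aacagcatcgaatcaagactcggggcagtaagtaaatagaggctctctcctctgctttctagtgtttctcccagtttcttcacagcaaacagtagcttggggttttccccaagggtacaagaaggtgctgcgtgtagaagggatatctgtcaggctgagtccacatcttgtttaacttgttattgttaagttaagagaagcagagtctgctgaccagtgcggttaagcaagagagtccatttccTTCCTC
Acp5, chr9:22130599-22130848, - strand: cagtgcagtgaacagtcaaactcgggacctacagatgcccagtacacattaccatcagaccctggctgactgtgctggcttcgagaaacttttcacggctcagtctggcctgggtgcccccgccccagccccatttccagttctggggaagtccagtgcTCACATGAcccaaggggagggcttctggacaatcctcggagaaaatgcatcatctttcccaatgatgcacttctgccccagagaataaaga

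The Itgam window held GAGGAA 84 to 79 bases before the start on its own strand and TTCCTC 15 to 10 bases before it. The Fcgr3 window, of 1 of 2 annotated starts, held TTCCTC in its last 6 bases, and the window of the other start holds the same match. The Acp5 window of this start, 1 of 3 annotated starts, held TCACATGA 91 to 84 bases before it and no GAGGAA, and the windows of the other starts held neither. Msr1 is named only. A match is a run of letters and does not show that a factor binds, nor does a missing match show that none does. Among measured myeloid transcription factors, Tfec, a relative of MITF, rose in Kit-W/sh tumors to 36.3 ± 10.02 CPM, against 8.43 ± 1.70 CPM in Kit-W/sh preneoplastic colon (2.08 ± 0.57, edgeR adjusted p = 0.01), and was at 28.3 ± 9.44 CPM in Kit-B6 tumors against 15.3 ± 8.63 CPM in Kit-B6 preneoplastic colon (0.88 ± 0.45, adjusted p = 0.122). Of the 6 such genes, 1 rose and 2 fell in Kit-W/sh tumors, and 0 passed in Kit-B6 tumors.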

How the data were processed

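RNA from mouse colon was read by multiplex PCR of short amplicons with a QIAseq targeted panel for mouse immuno-oncology, per the labels' protocols. The authors deposited raw counts for each gene of the panel in a table for each sample. The submitters' processing notes name mm9 and DESeq2 without a version or role, and the aligner, the counting of reads or molecular tags, and amplicon positions are not given in the sources used here. No library had a count for the 5 control amplicons, which were dropped.

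Groups and replicate numbers came from the titles. Counts were tested in R 4.3.3 with edgeR 4.0.16 (TMM scaling, robust quasi-likelihood fit, genes kept by filterByExpr at a count of 10 and a total of 15) with Benjamini-Hochberg adjustment over all genes tested and a threshold of 0.05. Genotype comparisons were fitted on the libraries of their own stage; stage comparisons and the interaction came from 1 fit of 17 libraries in 4 groups. The SE of a log2 fold change was derived from the test, as its absolute value divided by the square root of the F statistic. The 95% intervals are the log2 fold change plus and minus this SE times a t quantile. Log2 levels for the closest genes used a prior count of 2. On simulated counts, 2-fold changes passed for 69 of 99 genes between genotypes in tumors and 43 of 99 in preneoplastic colon. For stage they passed for 30 of 98 genes in Kit-W/sh mice and 50 of 99 in Kit-B6 mice. Changes of 4-fold passed for 96 of 99, 84 of 99, 85 of 100 and 84 of 99 genes, in that order. Unchanged genes that passed numbered 7, 10, 3 and 3. A change of 2-fold could therefore fail to pass.

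All same-group library pairs differed by more than counting noise (lowest chi-square per degree of freedom 13.0). Amplified counts without molecular identifiers are not independent molecules. Alternatives were other scalings, no filter, DESeq2 1.42.0, a replicate block, other sets of libraries in the fit, summing Kit-B6 tumors 4 and 5, and leaving out each library. Scaling by the 9 genes listed last in the panel, and leaving out both libraries that stand apart, were added after seeing the data.

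The 4 genes, the gene lists and the tests were chosen with earlier results of these data known. Named genes were the 4, their direct partners, up to 4 tested genes of smallest p in each list described, and the 3 closest genes of each of the 4. Kit, Cpa3 and Adgre1 are given as checks. Sequences came from RefSeq (GRCm38.p6) and shared 30-base stretches from GENCODE vM21; no coordinates were converted.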

Additional observations from a re-analysis of the deposited data

Results flagged for a closer look

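The level of Acp5 in Kit-B6 tumor 4 was 4468 CPM, far from the other Kit-B6 tumors at 1229 to 2128 CPM. Its gap to the nearest library took 0.722 of the range of the group, above the critical value of 0.625 of Dixon's test for 6 samples. The level of Fcgr3 in Kit-W/sh tumor 4 was 457 CPM, below the other Kit-W/sh tumors at 552 to 605 CPM, with a gap of 0.642 of the range. Chance flags about 1 in 20 groups, and 8 groups were examined.

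The genotype differences of Itgam had opposite signs at the 2 stages, and neither passed (edgeR adjusted p = 0.542 in tumors and 0.467 in preneoplastic colon). The share of all genes with this pattern was not computed. Either sign was common, as 385 of 799 genes were above 0 in tumors and 380 of 777 in preneoplastic colon. All Kit-W/sh tumors were above the median of Kit-B6 tumors, and both Kit-W/sh preneoplastic samples were below the median of Kit-B6 preneoplastic samples. How many genes of the panel had such positions was not computed either. The difference between the stages was 1.32 on the log2 scale and did not pass (edgeR adjusted p = 0.66, and 0.331 to 1 over the alternatives).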

How the results depend on the processing

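Itgam kept its direction and its call in every comparison under all alternatives run. The 3 other genes had exceptions. Msr1 between genotypes in tumors had a log2 fold change of 0.07 and reversed to -0.13 without both libraries that stand apart, and over single libraries left out it ran from -0.15 to 0.32. In preneoplastic colon Fcgr3 ran from -0.69 to 0.08 and Acp5 from -0.057 to 0.27 over single libraries left out. Acp5 there was -0.019 with the replicate block and -0.018 with scaling by the 9 last-listed genes. For Acp5 in Kit-B6 tumors against preneoplastic colon, the value was -0.98 without both libraries that stand apart, -0.75 with tumors 4 and 5 summed, and -0.98 to -0.42 over single libraries left out. For Fcgr3 there it was 1.28 with only Kit-B6 libraries fitted and 1.05 to 1.45 over single libraries left out. In Kit-W/sh mice the stage values over single libraries left out were 2.27 to 2.59 for Msr1, 1.52 to 2.30 for Fcgr3 and -1.30 to -1.13 for Acp5, and Acp5 was -0.70 with housekeeping scaling. Where 1 preneoplastic library was left in Kit-W/sh mice, it was assumed to vary like the other groups.

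Between genotypes in tumors, 0 genes were called with any single library left out, DESeq2 called 24, and 15 were called without both libraries that stand apart. In preneoplastic colon 1 gene was called, against 0 with unscaled totals, with the 9 last-listed genes, with all 17 libraries and with the replicate block, 26 with housekeeping scaling, 20 with DESeq2, and 0 to 16 over single libraries left out, the 16 without Kit-B6 sample 1. In Kit-W/sh mice 345 genes changed with stage, and 132 to 385 over single libraries left out, with 132 without preneoplastic sample 1 and 159 without sample 2. In Kit-B6 mice the count was 265 to 425. For the difference between stages, DESeq2 called 1 gene and 0 to 2 were called over single libraries left out, 2 without Kit-B6 preneoplastic sample 1. The causes were not tested, apart from the fewer samples in some fits.

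In Kit-W/sh mice 52.8% of calls were higher with TMM, against 70.1% with unscaled totals, 82.6% with housekeeping scaling and 67.3% with the last-listed genes. In Kit-B6 mice 54.1% were higher, against 73.0% with unscaled totals, 74.7% with housekeeping scaling and 52.5% with the last-listed genes. The median of all genes moved to 0.34, 0.56 and 0.27 in Kit-W/sh mice and to 0.24, 0.23 and -0.03 in Kit-B6 mice under these scalings, in that order. Same-numbered samples did not deviate together (correlations -0.21 to 0.41 over 13 pairs), so they were not treated as pairs; the replicate block gave 250 stage calls for Kit-W/sh and 276 for Kit-B6 mice, and changed no call of the 4 genes.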
